A study of Mus musculus with 20 samples.

Results

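The genes described here are 39 mouse genes of the synapse: proteins of the synaptic vesicle, the machinery that docks and fuses it, the vesicular transmitter transporters, and the adhesion and scaffold proteins that face the release site. They were chosen by name from the 54532 genes of the count table. All 39 were found, all are annotated as protein coding, and all passed the filter on low counts, as did 18336 genes in all. They were measured in polyadenylated RNA from 1 brain hemisphere per library, in 4 genotypes with 5 libraries each. DKO mice lack both Glb1 and Neu3, Glb1KO mice lack Glb1, Neu3KO mice lack Neu3, and WT mice, the control, carry neither knockout. GM1 ganglioside loses its terminal galactose in lysosomes through the beta-galactosidase coded by Glb1, and Neu3 codes for a sialidase that trims gangliosides at membranes. Neither the alleles nor the strain background nor the ages of the mice were stated in these sources. It was also not stated that each library came from an animal of its own, so the p-values measure the spread between libraries.

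A synaptic vesicle is filled by a transporter that exchanges protons for transmitter, is held near the active zone by large scaffold proteins, and fuses when vesicle and plasma membrane SNARE proteins zip together under the control of calcium-sensing synaptotagmins. Across the cleft, neuroligins bind presynaptic neurexins, and a layered scaffold of PSD-95, SAPAP, Shank and Homer proteins anchors glutamate receptors. Most of these genes are transcribed in nearly all neurons, while some family members are tied to brain regions: Slc17a7, Syt1 and Vamp2 to the forebrain more than Slc17a6, Syt2 and Vamp1, which are prominent in brainstem or thalamus.

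Total counts ran from 15162311 to 25145806 per library. Glb1 averaged 3.999 CPM in DKO and 3.38 CPM in Glb1KO, against 20.5 CPM in Neu3KO and 20.2 CPM in WT (SD 1.07, 0.903, 1.34 and 1.32, n = 5 each), where CPM is the library's read counts rescaled to a common total with trimmed-mean (TMM) factors. Neu3, a low-abundance transcript, averaged 2.98 CPM in DKO, 4.06 CPM in Glb1KO, 2.86 CPM in Neu3KO and 3.85 CPM in WT, and its ranges overlapped between all groups, so its level does not check the labels. All 20 pan-neuronal marker genes listed were detected and tested. The sample identifiers begin with 1 of 3 letters, whose meaning was not given: all 5 WT libraries, 2 DKO, 2 Glb1KO and 1 Neu3KO library begin with E.

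In WT hemispheres the synaptic genes spanned a wide range of levels per kilobase of counted length. Cplx1 was highest at 273 ± 18.2 CPM per kilobase (SD, n = 5), followed by Camk2a at 269 ± 8.82, Snap25 at 221 ± 12.9 and Cplx2 at 217 ± 2.66. Neither Cplx1 and Camk2a nor Snap25 and Cplx2 differed from each other beyond their spread. Syn3 was lowest at 1.82 ± 0.279 CPM per kilobase and Nlgn1 next at 4.88 ± 0.337.

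In DKO hemispheres 24 of the 39 genes were called lower than in WT and none was called higher (edgeR quasi-likelihood F test, Benjamini-Hochberg adjusted p under 0.05), but when libraries were scaled to the median ratio of 20 pan-neuronal genes in place of all genes, a choice made after the data were seen, this turned into 8 lower and 12 higher. The pan-neuronal scaling raised the median of all genes too, and its shares over all genes are not given here. With TMM factors, 29% of all genes tested were called in the same comparison, 15.1% lower and 14% higher. The median log2 fold change of the 39 genes was -0.23, with 37 below zero, against a median of -0.0032 over all genes. For 20 of the 39 genes every DKO library was below every WT library, against 9.35% of all genes. The 24 called genes reached from Rims1, at 60.8% of its WT level, to Cplx2 at 89.4%. In a whole hemisphere, fewer neurons and less RNA per neuron cannot be told apart. With the threshold of 0.05 put to the adjusted p of the authors' deposited table of DKO against WT, the same 24 genes were lower and none was higher. Its log2 fold changes differed from those given here by at most 0.004, and as both come from the same libraries, this is not independent support.

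Other markers moved in the same libraries. The summed level of 16 genes of disease-associated microglia was 5668 to 6754 CPM in DKO, 2498 to 2792 in Glb1KO, 2014 to 2275 in Neu3KO and 1705 to 2166 in WT, and all 16 were called higher in DKO than in WT. That of 10 reactive astrocyte genes was 4333 to 5145 CPM in DKO, 495 to 680 in Glb1KO, 245 to 301 in Neu3KO and 241 to 315 in WT, with all 10 called higher. Of the 20 pan-neuronal genes, 13 were called lower in DKO than in WT and none higher, with a median log2 fold change of -0.20. The summed level of these 20 was 9957 to 10821 CPM in DKO, 11629 to 12794 in Glb1KO, 13071 to 14238 in Neu3KO and 12864 to 14629 in WT. Their part in the synaptic result was not tested.

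**Figure D1:**
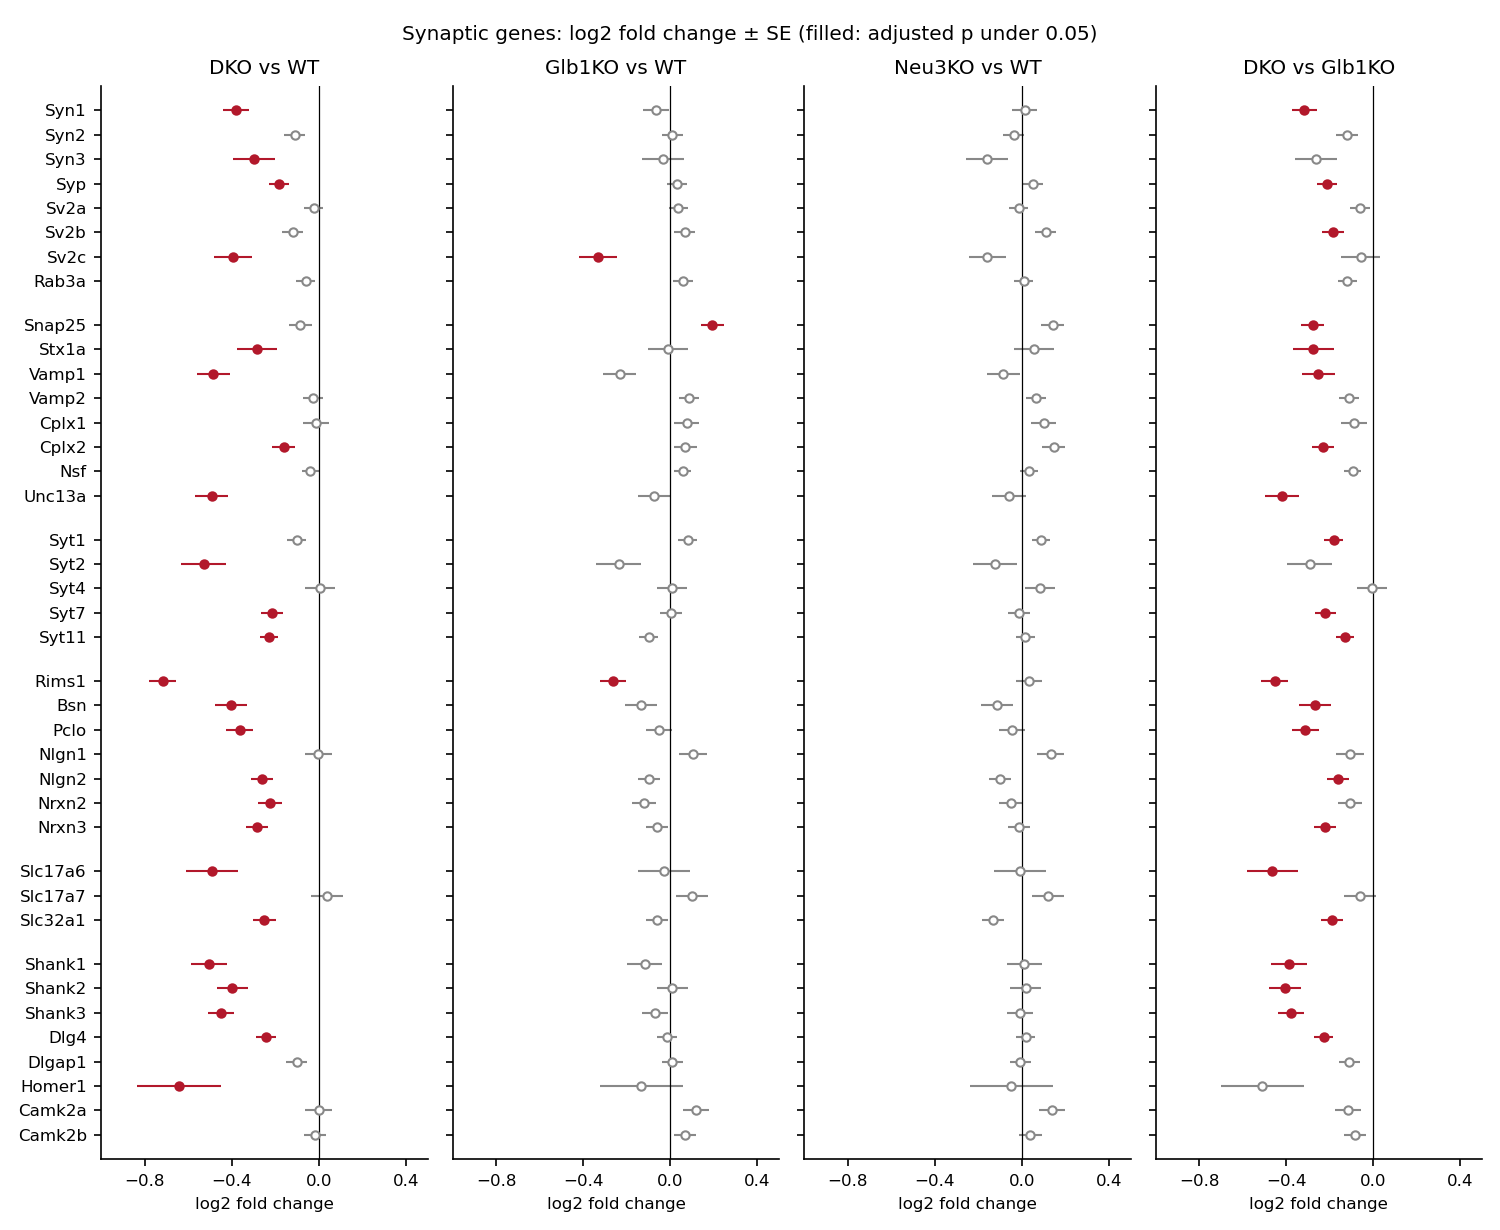
Log2 fold changes with their SE for each of the 39 genes, by role, in 4 comparisons of 5 libraries a group, filled where the adjusted p was under 0.05. DKO against WT has 24 genes called lower, Glb1KO against WT has Sv2c and Rims1 lower and Snap25 higher, Neu3KO against WT has none, and DKO against Glb1KO has 22 lower; with scaling to pan-neuronal genes the DKO values shift up and 12 genes turn to a higher call against WT.

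Among the 8 vesicle proteins, Syn1, Syn3, Syp and Sv2c were called lower in DKO than in WT, while with scaling to pan-neuronal genes only Syn1 was called lower and Sv2a and Rab3a were called higher. Syn1 codes for synapsin I, which coats vesicles and tethers the reserve pool to actin; the gene (ENSMUSG00000037217) lies on the minus strand at chrX:20860511-20921004 of GRCm38. Its level was 514, 496, 445, 407 and 422 CPM in DKO, 516, 546, 561, 612 and 610.3 in Glb1KO, 602, 579.6, 566, 603 and 653 in Neu3KO, and 625, 555, 611, 607 and 578 in WT libraries. All 5 DKO libraries were below all libraries of the other 3 groups. The log2 fold change was -0.38 ± 0.059 (SE) against WT (adjusted p = 5.05e-06) and -0.32 ± 0.059 against Glb1KO (adjusted p = 0.000166). Its paralogs differed in size: Syn2 was at -0.11 against WT (95% interval from -0.21 to -0.0090) and not called, and Syn3, the least abundant member, was at -0.30 ± 0.096 (adjusted p = 0.017), a call that was lost without DKO replicate 2, DKO replicate 3 or WT replicate 1 (adjusted p up to 0.114), with the identifier letter as a term (adjusted p = 0.109) and among libraries with letter E (adjusted p = 0.355).

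The start of Syn1 is shown because it was the only member whose window held the cyclic AMP response element TGACGTCA, the site to which CREB-family factors bind. RefSeq windows of GRCm38.p6 from 250 bases before to 50 after the start were available for 30 of the 39 genes and were searched on both strands; 2.03% of all genes with a window hold this element. The Syn1 window is chrX:20920869-20921168 on the minus strand, written 5′ to 3′ with the element in capitals.
Syn1: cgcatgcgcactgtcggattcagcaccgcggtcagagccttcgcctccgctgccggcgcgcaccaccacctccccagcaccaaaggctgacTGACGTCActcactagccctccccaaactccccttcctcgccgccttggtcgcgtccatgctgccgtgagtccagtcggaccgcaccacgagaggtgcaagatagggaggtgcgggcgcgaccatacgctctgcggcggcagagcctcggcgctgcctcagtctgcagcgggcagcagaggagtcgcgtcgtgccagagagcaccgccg
A match in these letters is a description of the window and says nothing on whether a factor binds there.

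Synaptophysin, coded by Syp, is an abundant membrane protein of the vesicle that binds the SNARE protein VAMP2. Syp had 593, 615, 622, 596 and 649 CPM in DKO, 725, 705.96, 692, 729.6 and 715 in Glb1KO, 716, 782, 719, 688 and 705.8 in Neu3KO, and 650.3, 688, 734, 744 and 672 in WT. Its DKO values were the lowest of all 4 groups without overlap, though close to WT replicate 1, and the log2 fold change was -0.18 ± 0.046 against WT (adjusted p = 0.00279) and -0.21 ± 0.046 against Glb1KO (adjusted p = 0.00102). The SV2 proteins are transporter-like glycoproteins of the vesicle, of which SV2C is the form concentrated in basal ganglia and brainstem. Sv2c had 118, 108, 105, 95.3 and 120.3 CPM in DKO, 114, 106, 102, 122 and 125 in Glb1KO, 144, 111, 101, 148 and 139.6 in Neu3KO, and 154, 139.7, 145, 136 and 143 in WT. DKO and Glb1KO libraries overlapped each other and were all below WT, with log2 fold changes against WT of -0.39 ± 0.088 in DKO (adjusted p = 0.00129) and -0.33 ± 0.088 in Glb1KO (adjusted p = 0.0272). The Glb1KO call was lost when any of Glb1KO replicates 1 to 3 or WT replicates 1, 3 and 5 was left out (adjusted p up to 0.0993).

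Sv2b, a form found largely in glutamatergic neurons, had 373, 405, 372, 377 and 389 CPM in DKO, 441, 401, 444, 460.4 and 433 in Glb1KO, 437, 479, 438, 425 and 469 in Neu3KO, and 395, 434, 438, 426 and 389.6 in WT. Its DKO values overlapped WT and were not called there (log2 fold change -0.12, 95% interval from -0.22 to -0.0165), but were lower than in Glb1KO by the test (-0.19 ± 0.049, adjusted p = 0.0066). Sv2a, the widespread form, and Rab3a, the vesicle GTPase that binds RIM proteins, were at -0.02 and -0.06 against WT and were not called, with 95% intervals from -0.12 to 0.069 and from -0.15 to 0.033.

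**Figure D2:**
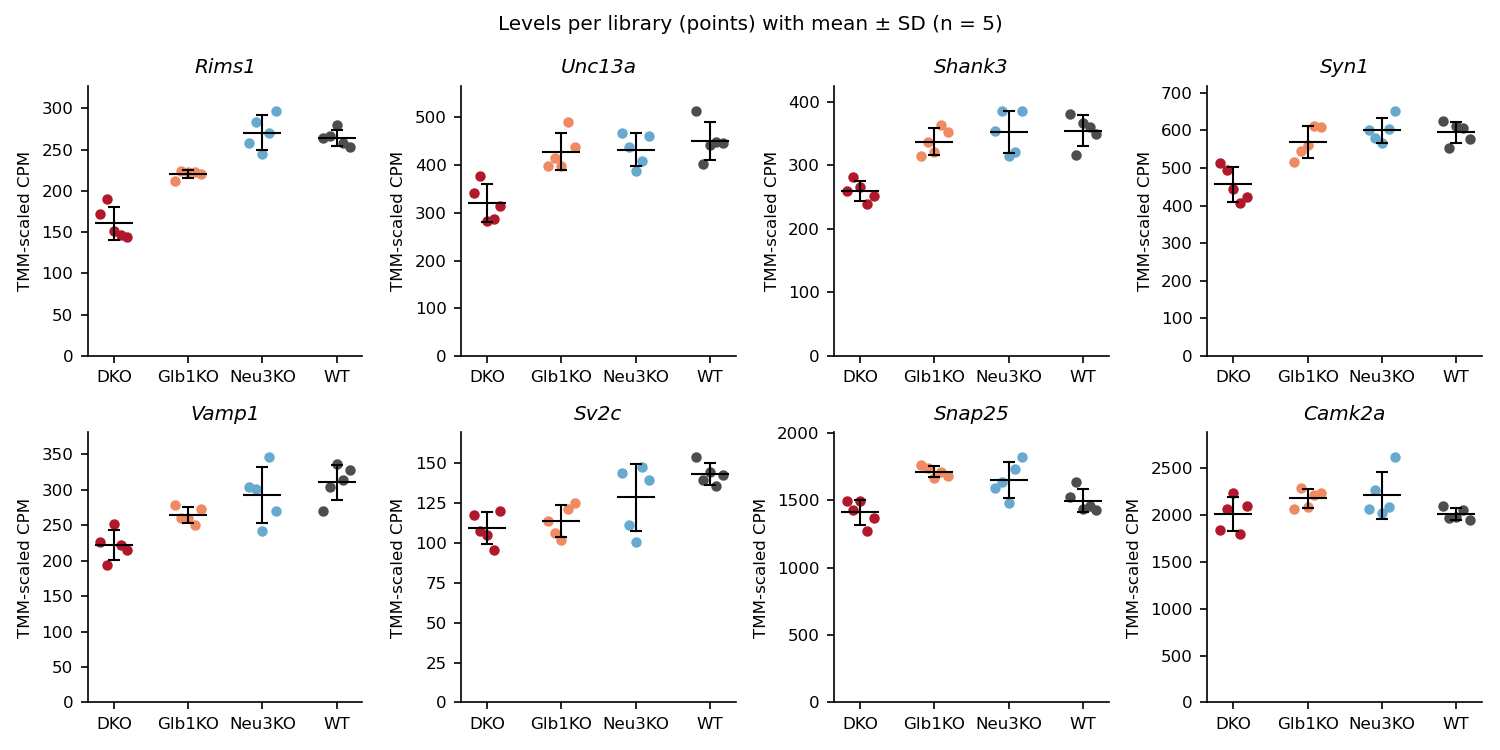
Level in each library (points, TMM-scaled CPM on a linear axis from 0) with mean and SD of 5 libraries for 8 genes, in DKO, Glb1KO, Neu3KO and WT. Rims1, Unc13a, Shank3 and Syn1 have all DKO points below all WT points, Sv2c has DKO and Glb1KO below WT, Snap25 is highest in Glb1KO, and Camk2a overlaps between DKO and WT.

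Of the 8 genes of SNARE proteins and fusion machinery, Stx1a, Vamp1, Cplx2 and Unc13a were called lower in DKO than in WT, whereas Vamp1 and Unc13a alone were called lower with scaling to pan-neuronal genes and Snap25, Vamp2, Cplx1 and Nsf were called higher. Unc13a codes for Munc13-1, the factor that opens syntaxin and primes vesicles for release. Unc13a had 341, 377, 282, 287 and 314 CPM in DKO, 398, 416, 398, 490.2 and 439 in Glb1KO, 467, 438, 387, 409 and 461 in Neu3KO, and 515, 403, 441, 449 and 446 in WT. All DKO libraries lay below all others, and the log2 fold change was -0.49 ± 0.077 against WT (adjusted p = 2.04e-05) and -0.42 ± 0.077 against Glb1KO (adjusted p = 0.00031). Vamp1, the vesicle SNARE prominent in brainstem and spinal cord, had 226, 193, 252, 222 and 215 CPM in DKO, 278, 261, 260.1, 249.8 and 273 in Glb1KO, 304, 302, 242, 346 and 270.1 in Neu3KO, and 270.7, 304, 335.8, 314 and 328 in WT. DKO libraries were all below WT but overlapped Glb1KO and Neu3KO, with a log2 fold change against WT of -0.49 ± 0.076 in DKO (adjusted p = 1.63e-05) and -0.23 ± 0.075 in Glb1KO, which was not called (adjusted p = 0.0879).

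Complexins bind the assembled SNARE complex and both hold and promote fusion. Cplx2 had 871, 936, 1006, 950.0 and 1018 CPM in DKO, 1114, 1164, 1113, 1127 and 1094 in Glb1KO, 1049, 1204, 1114, 1201 and 1353 in Neu3KO, and 1057, 1085, 1065, 1083 and 1060.3 in WT. Its DKO values were below those of every other group, WT being the tightest, with log2 fold changes of -0.16 ± 0.052 against WT (adjusted p = 0.017), a call that was lost without DKO replicate 1 (adjusted p = 0.0725), and -0.23 ± 0.052 against Glb1KO (adjusted p = 0.00156). Stx1a, the plasma membrane syntaxin, was at -0.29 ± 0.093 against WT (adjusted p = 0.023), and its call was lost without DKO replicate 4 or 5 or WT replicate 1, 3 or 4 (adjusted p up to 0.0873), with the identifier letter as a term (adjusted p = 0.264) and among libraries with letter E (adjusted p = 0.407).

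Snap25, the plasma membrane SNARE that pairs with syntaxin, was the only one of the 39 genes called higher in Glb1KO than in WT with TMM factors. Snap25 had 1495, 1431, 1493, 1274 and 1366 CPM in DKO, 1764, 1739, 1668, 1710.3 and 1684 in Glb1KO, 1592, 1639, 1477, 1735 and 1821 in Neu3KO, and 1527, 1639, 1439, 1454 and 1429.7 in WT. Every Glb1KO library was above every DKO and every WT library, and DKO overlapped WT. It was called higher in Glb1KO than in WT (log2 fold change 0.19 ± 0.053, adjusted p = 0.0266) and lower in DKO than in Glb1KO (-0.28 ± 0.053, adjusted p = 0.000209), while DKO against WT was at -0.09 (95% interval from -0.20 to 0.027). The higher call in Glb1KO was lost without Glb1KO replicate 1 or 2 or WT replicate 3, 4 or 5 (adjusted p up to 0.0796). Vamp2, Cplx1 and Nsf, the ATPase that takes spent SNARE complexes apart, were within -0.04 and -0.01 of WT in DKO and were not called. Like Snap25, they and Cplx2 had positive values against WT in both single knockouts, none of them called. Vamp2, Cplx1, Nsf and Cplx2 were at 0.09, 0.08, 0.06 and 0.07 in Glb1KO and at 0.06, 0.10, 0.03 and 0.15 in Neu3KO.

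Of the 5 synaptotagmins, Syt2, Syt7 and Syt11 were called lower in DKO than in WT, but Syt2 alone with scaling to pan-neuronal genes, under which Syt1 and Syt4 were called higher. Syt1 and Syt2 are the fast calcium sensors of release, Syt1 in the forebrain and Syt2 mainly in caudal brain. Syt2 had 165, 133, 192, 173 and 164 CPM in DKO, 210.1, 188, 219, 189 and 206 in Glb1KO, 218, 229, 167, 270.996 and 212 in Neu3KO, and 239, 213, 262, 234 and 245 in WT. DKO libraries were all below WT and overlapped Glb1KO and Neu3KO, whose own spread was the widest, and the log2 fold change against WT was -0.53 ± 0.103 (adjusted p = 0.000542). Syt1 had 1210.3, 1276, 1159, 1177 and 1248 CPM in DKO, 1379.9, 1309, 1385, 1439.9 and 1370.1 in Glb1KO, 1344, 1366, 1402, 1337 and 1482 in Neu3KO, and 1284, 1328, 1307, 1333 and 1266 in WT. DKO overlapped WT only through DKO replicate 2 and WT replicate 5, was not called against WT (-0.10, 95% interval from -0.19 to -0.012), and was called lower than in Glb1KO (-0.18 ± 0.043, adjusted p = 0.00243).

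Syt11 is a synaptotagmin that does not bind calcium, and Syt7 a slower, high-affinity calcium sensor. Syt11 had 723, 716, 669, 637 and 657 CPM in DKO, 768, 734, 739, 752 and 728 in Glb1KO, 813, 796, 769, 833 and 823 in Neu3KO, and 785, 790.1, 829, 799.6 and 786 in WT. Its values were lowest in DKO without overlap and next in Glb1KO, all of whose libraries were below WT, and the log2 fold change of DKO was -0.23 ± 0.043 against WT (adjusted p = 9.58e-05), a call that was lost among libraries with letter E (adjusted p = 0.121). Syt7 had 313, 321, 321, 321 and 344 CPM in DKO, 366, 367, 366, 401 and 385 in Glb1KO, 367, 373, 359, 377 and 386 in Neu3KO, and 421, 338.1, 371, 383 and 367 in WT. DKO replicate 5 was above WT replicate 2, and the log2 fold change of DKO was -0.22 ± 0.049 against WT (adjusted p = 0.000978). Syt4 was at 0.00 in DKO against WT and was not called (95% interval from -0.14 to 0.15).

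The active zone and adhesion genes had the highest share of calls: 6 of 7 were lower in DKO than in WT, Nlgn1 being the exception, although with scaling to pan-neuronal genes Rims1 alone kept a lower call and Nlgn1 was called higher. Rims1 codes for RIM1, the scaffold that links vesicle Rab3 to Munc13 and calcium channels, and lies on the minus strand at chr1:22286251-22805994 of GRCm38 (ENSMUSG00000041670). Rims1 had 172, 191, 152, 146 and 144 CPM in DKO, 212, 223, 223, 223 and 220.2 in Glb1KO, 258, 283, 244, 270.6 and 297 in Neu3KO, and 264, 266.2, 279.7, 259 and 253 in WT. DKO was below Glb1KO and Glb1KO below both Neu3KO and WT, with no overlap between these steps. Its log2 fold change was -0.72 ± 0.062 in DKO against WT (adjusted p = 2.73e-11), -0.45 ± 0.062 in DKO against Glb1KO (adjusted p = 1.13e-06) and -0.26 ± 0.061 in Glb1KO against WT (adjusted p = 0.00691). It was called lower in DKO than in WT under that scaling, under one to the summed counts of the same genes, and without any 1 library.

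Piccolo and Bassoon are the giant scaffolds that organise the active zone. Pclo had 362, 355, 308, 324 and 331 CPM in DKO, 395, 383, 452, 409.8 and 447 in Glb1KO, 412, 397, 387, 435 and 465 in Neu3KO, and 502, 410.5, 419, 426 and 405 in WT. All DKO values were below those of the other 3 groups, WT replicate 1 stood highest, and the log2 fold change was -0.36 ± 0.061 against WT (adjusted p = 2.23e-05). Bsn was at -0.40 ± 0.074 (adjusted p = 0.00013), with 563 to 636 CPM in DKO against 708 to 934 CPM in WT. Neurexins are presynaptic receptors of neuroligins. Nrxn3 had 220.3, 235, 211, 232 and 235 CPM in DKO, 263, 262, 265, 262 and 269.5 in Glb1KO, 258, 242, 285, 291 and 293 in Neu3KO, and 291, 265, 271.1, 277 and 275 in WT. The DKO libraries were all below those of the other groups, and the log2 fold change was -0.28 ± 0.05 against WT (adjusted p = 4.52e-05). Nrxn2 was at -0.23 ± 0.055 and Nlgn2, the neuroligin of inhibitory synapses, at -0.26 ± 0.05, both called, while Nlgn1, found mainly at excitatory synapses, was at -0.00 (95% interval from -0.14 to 0.13).

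The windows around the starts of Rims1 and Bsn are shown because Rims1 was the member with the smallest adjusted p in DKO against WT and Bsn was the only one whose window held the NRF1 palindrome, a site of nuclear respiratory factor 1. Of all genes with a window, 1.07% hold that palindrome. The Rims1 window, chr1:22806109-22806408 on the minus strand of GRCm38.p6 in RefSeq, has GC boxes (GGGCGG, the Sp1 type of site) in capitals, and the Bsn window, chr9:108190334-108190633 on the minus strand, has the NRF1 palindromes in capitals. The Rims1 window is set by the RefSeq start and lies wholly upstream of the counted gene, which begins at 22805994.
Rims1: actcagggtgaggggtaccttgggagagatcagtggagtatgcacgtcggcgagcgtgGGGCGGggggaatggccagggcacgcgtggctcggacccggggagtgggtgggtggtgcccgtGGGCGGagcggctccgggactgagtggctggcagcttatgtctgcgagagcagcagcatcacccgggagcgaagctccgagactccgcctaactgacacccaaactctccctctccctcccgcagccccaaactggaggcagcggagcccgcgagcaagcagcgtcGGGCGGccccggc
Bsn: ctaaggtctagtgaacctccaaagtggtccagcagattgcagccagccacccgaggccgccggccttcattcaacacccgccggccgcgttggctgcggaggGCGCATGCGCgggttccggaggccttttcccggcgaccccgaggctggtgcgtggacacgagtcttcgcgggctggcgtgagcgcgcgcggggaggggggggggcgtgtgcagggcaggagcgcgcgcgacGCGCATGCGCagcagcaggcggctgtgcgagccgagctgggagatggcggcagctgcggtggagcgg
GC boxes were in the windows of 22 of the 30 genes, against 38.2% of all genes with a window, and were found in genes called lower, such as Rims1, Shank3 and Unc13a, as well as in genes not called, such as Cplx1, Sv2a and Rab3a. Some genes have more than 1 window, and by window GC boxes were in 23 of 45, against 35.66% of all windows. The median GC content was 60.0% in these windows and 52.7% in all windows. The E-box CACGTG was in 3 windows, those of Dlgap1, Nsf and Sv2b, against 8.09% of all genes. None of the 4 motifs is contained in another.

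The 3 vesicular transporters define the transmitter of a terminal, and Slc17a6 and Slc32a1 were called lower in DKO than in WT while Slc17a7 was not, but with scaling to pan-neuronal genes Slc17a6 stayed lower, Slc32a1 lost its call and Slc17a7 was called higher. Slc17a6 codes for VGLUT2, the glutamate transporter of thalamus and brainstem. Slc17a6 had 88.1, 86.0, 73.6, 70.3 and 54.0 CPM in DKO, 111, 107, 115, 80.9 and 98.5 in Glb1KO, 120.1, 95.5, 101, 115 and 88.0 in Neu3KO, and 97.4, 114, 108, 99.7 and 105 in WT. DKO was below WT without overlap but overlapped Glb1KO and Neu3KO, with DKO replicate 5 lowest, and the log2 fold change was -0.49 ± 0.119 against WT (adjusted p = 0.00389) and -0.46 ± 0.119 against Glb1KO (adjusted p = 0.0108). Slc17a7 codes for VGLUT1, the transporter of cortical and hippocampal excitatory terminals. Slc17a7 had 743, 823, 787, 789.7 and 947 CPM in DKO, 798, 788, 827, 998 and 860.2 in Glb1KO, 834, 1012, 833, 747 and 899 in Neu3KO, and 782, 777, 819, 865 and 742 in WT. All groups overlapped, and DKO against WT was at 0.04 (95% interval from -0.12 to 0.19). Slc32a1, which codes for the GABA and glycine transporter, had 139, 134, 123, 124 and 134 CPM in DKO, 152, 152, 140.1, 146 and 157 in Glb1KO, 147, 145, 139, 145 and 134 in Neu3KO, and 148, 145, 167, 155 and 163 in WT. Its DKO values were below all WT values but met Neu3KO, and the log2 fold change against WT was -0.25 ± 0.052 (adjusted p = 0.000299), a call that was lost among libraries with letter E (adjusted p = 0.108).

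Beside these, 7 of 8 genes of hindbrain and spinal neurons were tested, and their summed level was 20.6 to 42.3 CPM in DKO, 14.1 to 31.8 in Glb1KO, 13.9 to 75.7 in Neu3KO and 64.1 to 103 in WT. Of these, 4 were called lower in DKO and 3 in Glb1KO than in WT, Glra1, the glycine receptor subunit, being at -1.18 and Slc6a5, the glycine transporter of glycinergic neurons, at -1.32 in DKO. The summed level of these genes was lower in DKO than in WT in the same libraries as Slc17a6, Syt2 and Vamp1. In Glb1KO against WT the 7 had a median of -2.47, with Slc17a6, Syt2 and Vamp1, not called, at -0.03, -0.24 and -0.23. In DKO against Glb1KO all 7 were above zero and not called (median 0.31). There Slc17a6, Syt2 and Vamp1 were at -0.46, -0.29 and -0.25, Syt2 not called. The part of the hindbrain and spinal genes in the change of Slc17a6, Syt2 and Vamp1 was not tested. Of 10 cortical excitatory neuron genes, 6 were called lower in DKO, Lamp5 at -0.57 and Cux2 at -0.29 among them, and 1 higher. Of 7 GABA neuron genes 1 was lower (Sst, -0.25) and 1 higher (Vip, 0.56), and of 7 striatal genes 1 was called, Ppp1r1b, at 0.45. The 8 cerebellar genes included 5 called lower in DKO, with Itpr1 at -0.74.

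Of the 8 postsynaptic scaffold and kinase genes, Shank1, Shank2, Shank3, Dlg4 and Homer1 were called lower in DKO than in WT, and with scaling to pan-neuronal genes Shank1 and Shank3 were called lower and Camk2a and Camk2b higher. Shank proteins form the deep layer of the postsynaptic density, where they join SAPAP to Homer and actin. Shank3 had 259, 281, 266.1, 239 and 252 CPM in DKO, 315, 336.3, 320.1, 363 and 353 in Glb1KO, 354, 385, 315, 321 and 386 in Neu3KO, and 380.4, 316, 367, 360.0 and 349 in WT. DKO lay below all other groups, and the log2 fold change was -0.45 ± 0.06 against WT (adjusted p = 3.99e-07) and -0.38 ± 0.06 against Glb1KO (adjusted p = 1.62e-05). Shank1 had 376, 427, 399, 394 and 403 CPM in DKO, 454, 524, 499, 576 and 561 in Glb1KO, 563, 574, 501, 575 and 646 in Neu3KO, and 716, 499.7, 567, 526 and 528 in WT. Its DKO values were again lowest without overlap and close together, while WT replicate 1 stood far above the other WT libraries, and the log2 fold change was -0.50 ± 0.082 against WT (adjusted p = 4.5e-05), between -0.54 and -0.40 when 1 library was left out.

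Shank2 had 179, 176, 173, 185 and 204 CPM in DKO, 213, 234, 237, 277 and 254 in Glb1KO, 235, 240.0, 209.5, 249 and 289 in Neu3KO, and 271.2, 243, 239, 222 and 233 in WT. No DKO library reached the range of another group, and the log2 fold change was -0.40 ± 0.072 against WT (adjusted p = 9.66e-05). Dlg4 codes for PSD-95, the scaffold that clusters glutamate receptors under the membrane. Dlg4 had 517, 541, 554, 513 and 559 CPM in DKO, 616, 641, 599, 658 and 628 in Glb1KO, 631.4, 686, 614, 618 and 666 in Neu3KO, and 644, 623, 636, 652 and 619 in WT. The DKO libraries were all lower than those of the other groups, which overlapped one another, with a log2 fold change of -0.24 ± 0.044 against WT (adjusted p = 6.42e-05). Homer1, which links Shank to metabotropic glutamate receptors, had the widest error of the 39 genes, with 124 to 203 CPM in DKO against 244 to 303 CPM in WT and a log2 fold change of -0.64 ± 0.192 (adjusted p = 0.018), and its call was lost without DKO replicate 3 (adjusted p = 0.0565) and with the identifier letter as a term (adjusted p = 0.126), but not among libraries with letter E (adjusted p = 0.00372). The counts of Homer1 sum its long scaffold forms and the short form that neuronal activity induces, which cannot be told apart at the gene level. Of 12 activity-induced genes, 11 were called lower in DKO than in WT, Egr1 at -1.27 and Arc at -1.57, with summed levels of 392 to 564 CPM in DKO, 626 to 1077 in Glb1KO, 819 to 1078 in Neu3KO and 1006 to 1350 in WT; their part in the change of Homer1 was not tested.

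Camk2a and Camk2b, the subunits of the calcium/calmodulin-dependent kinase that makes up much of the postsynaptic density, were at -0.00 and -0.02 in DKO against WT and were not called, with 95% intervals from -0.13 to 0.13 and from -0.13 to 0.090. Camk2a averaged 2005 ± 182 CPM in DKO, 2175 ± 97.5 in Glb1KO, 2208 ± 248 in Neu3KO and 2007 ± 65.8 in WT (SD, n = 5 each). Dlgap1, the SAPAP1 scaffold, was at -0.10 and was not called (95% interval from -0.20 to 0.0010).

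The genes that were called in DKO against WT were on the whole those of lower level. Of the 13 genes with the highest WT level per kilobase 4 were called lower in DKO, of the middle 13 there were 9, and of the lowest 13 there were 11, with median log2 fold changes of -0.06, -0.25 and -0.39. Across the 39 genes the log2 fold change of DKO against WT had a Spearman rho of 0.566 with the WT level per kilobase and of -0.339 with the counted length. The values were alike in the other comparisons with WT, at 0.558 and -0.336 in Glb1KO and at 0.564 and -0.337 in Neu3KO, where no gene was called, so this order by level was not particular to DKO. In DKO against Glb1KO they were 0.33 and -0.226, in DKO against Neu3KO 0.424 and -0.295, and in the interaction 0.022 and -0.061. These rank correlations are across genes measured in the same libraries, with the same WT libraries in the level and in the fold change, and genes are not independent replicates. The 24 called genes had a median WT level of 37.2 CPM per kilobase and a median counted length of 9445 bases, against 122 CPM per kilobase and 7031 bases for the 15 genes not called.

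**Figure D3:**
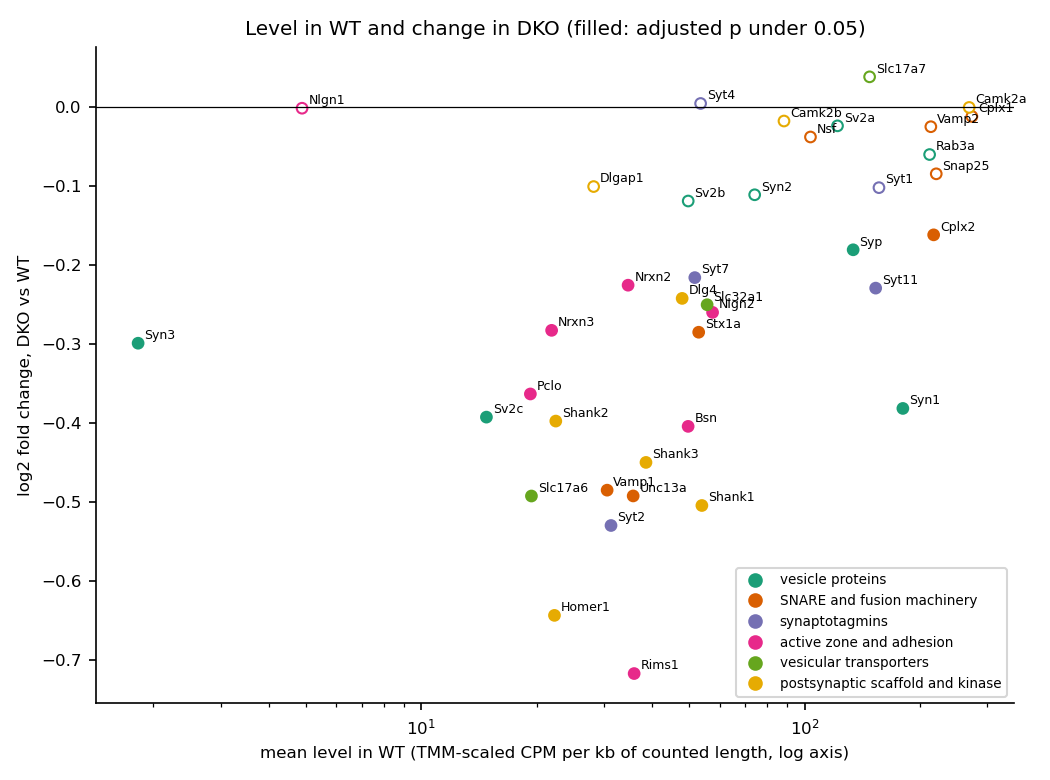
Log2 fold change of DKO against WT (vertical axis) by mean WT level in TMM-scaled CPM per kilobase (horizontal log axis) for the 39 genes, coloured by role and filled where called. The genes at about 0 lie mostly at the right, from 88.4 CPM per kilobase of Camk2b upward, while Rims1, Homer1, Syt2 and Shank1 lie lowest; with scaling to pan-neuronal genes the whole cloud moves up and the genes near 0 turn positive.

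Ratios between members of a library do not depend on the scaling. The pairs, either relatives of 1 family or genes of 1 side of the synapse, were chosen with the fold changes known, so their ratios are a description. Rims1 per Rab3a, each per kilobase, was 10.7% ± 1.19 in DKO, 13.6% ± 0.525 in Glb1KO, 17.2% ± 1.08 in Neu3KO and 17.0% ± 0.805 in WT (SD, n = 5 each), and DKO was below WT without overlap, as was Glb1KO. Shank3 per Camk2a was 10.5% ± 0.779 in DKO, 12.6% ± 0.505 in Glb1KO, 12.99% ± 0.85 in Neu3KO and 14.3% ± 0.776 in WT, with every DKO library below every Glb1KO and WT library. Syn1 per Syn2 was 202% ± 10.2 in DKO, 231% ± 11.7 in Glb1KO, 253% ± 18.8 in Neu3KO and 244% ± 10.5 in WT, again with DKO apart from Glb1KO and WT.

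Sv2c per Sv2a was 9.40% ± 0.829 in DKO and 9.38% ± 0.678 in Glb1KO, against 11.03% ± 2.09 in Neu3KO and 12.1% ± 0.447 in WT, and both DKO and Glb1KO were below WT without overlap. The 3 pairs of regional genes overlapped between DKO and WT. Syt2 per Syt1 was 14.9% ± 2.47 in DKO against 20.01% ± 1.73 in WT, Vamp1 per Vamp2 10.4% ± 1.06 in DKO against 14.4% ± 1.68 in WT, and Slc17a6 per Slc17a7 9.24% ± 2.29 in DKO against 13.2% ± 1.25 in WT. Cplx2 per Cplx1 was 72.0% ± 7.003 in DKO against 79.8% ± 5.44 in WT and also overlapped. In Glb1KO, Syt2 per Syt1 was 16.1% ± 1.12, below WT without overlap. Vamp1 per Vamp2, Slc17a6 per Slc17a7 and Cplx2 per Cplx1 overlapped between Glb1KO and WT.

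**Figure D4:**
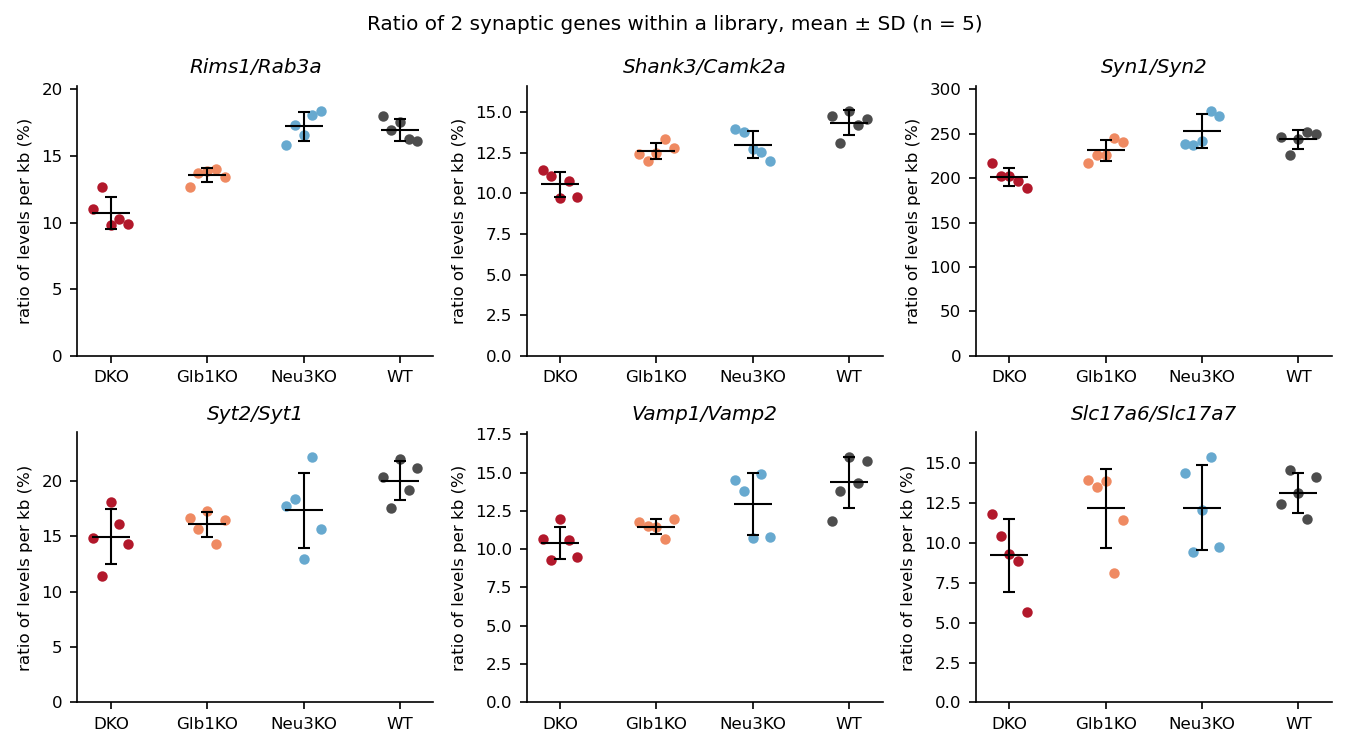
Ratio of the levels per kilobase of 2 synaptic genes within each library (points, percent, axis from 0), with mean and SD of 5 libraries, in DKO, Glb1KO, Neu3KO and WT. Rims1 per Rab3a, Shank3 per Camk2a and Syn1 per Syn2 have every DKO point below every WT point, while the lower 3 pairs overlap between DKO and WT.

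The call of a direction depended on what the libraries were scaled to. Scaling to the median ratio of the 20 pan-neuronal genes, the one meant above, moved the median of all genes in DKO against WT to 0.23 and that of the 39 synaptic genes to -0.0013. The genes called lower under it were Syn1, Vamp1, Unc13a, Syt2, Rims1, Slc17a6, Shank1 and Shank3, and 12 genes were called higher, among them Camk2a at 0.23 and Slc17a7 at 0.27. A change of scaling shifts all genes of a comparison by nearly the same amount. The distance of the synaptic genes from the median of all genes thus stayed about as under TMM by construction. The shares of all genes called under this scaling are not given here, for this comparison or the others. Those printed are with TMM factors. Scaling to the summed counts of those 20 genes moved the median of all genes to 0.35, and then Rims1 alone was called lower and 18 genes were called higher. In that sum Kif5a, a motor of axonal transport that was itself at -1.34 in DKO, was the second most abundant gene.

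**Figure D5:**
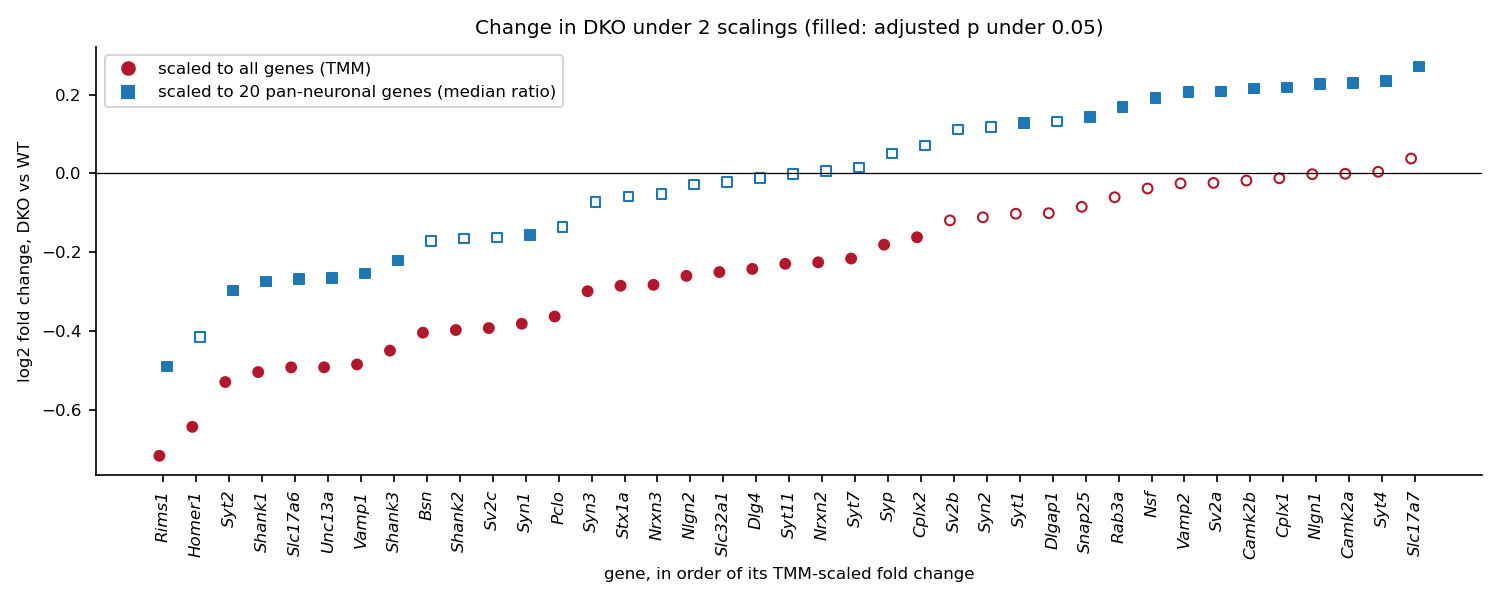
Log2 fold change of DKO against WT for the 39 genes in order of size, scaled to all genes with TMM (circles) and to 20 pan-neuronal genes by their median ratio (squares), filled where the adjusted p was under 0.05. Squares lie above circles for every gene; 24 circles and 8 squares are called lower, and 12 squares are called higher.

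In Glb1KO, 3 of the 39 genes were called against WT, Sv2c and Rims1 lower and Snap25 higher, and these same calls were made with the median-ratio scaling, though 6 genes were called higher and none lower when scaled to the summed pan-neuronal counts, while 3.96% of all genes were called, 2.21% lower and 1.75% higher. The median log2 fold change of the 39 genes was -0.01, with 20 below zero, against 0.0021 over all genes. For 5 of the 39 genes the groups did not overlap: Sv2c, Syt11 and Rims1 were lower in every Glb1KO library than in any WT library, and Snap25 and Cplx2 higher, against 2.96% of all genes lower and 2.6% higher. Of the Glb1KO libraries, 2 share the identifier letter E with WT and the other 3 begin with L. With the letter as a term none of the 3 genes was called (adjusted p = 0.0997 for Rims1, 0.555 for Sv2c and 0.313 for Snap25), and among the libraries with E alone Rims1 kept its call.

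In Neu3KO none of the 39 genes was called against WT, as was 0% of all genes with edgeR, and DESeq2 also called none of the 39. At an unadjusted p under 0.05 there were 7 of the 39, against 6.03% of all genes, and the smallest adjusted p was 0.757. The 7 were Slc32a1 at -0.13 and, with positive values, Sv2b, Snap25, Cplx2, Syt1, Nlgn1 and Camk2a at 0.11, 0.14, 0.15, 0.09, 0.13 and 0.14. Syt1, with higher values in every Neu3KO library than in any WT library, was the only one of the 39 genes whose groups did not overlap, against 0.524% of all genes higher and 0.66% lower. Only 1 Neu3KO library shares the identifier letter of WT.

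Against Glb1KO, which lacks the same lysosomal enzyme, 22 of the 39 genes were called lower in DKO and none higher, against 15.7% of all genes called, 7.29% lower and 8.41% higher, but with scaling to pan-neuronal genes 5 were called lower and 3 higher. The median log2 fold change was -0.21 with all 39 below zero, against -0.0046 over all genes, and for 18 genes the libraries did not overlap, against 5.25% of all genes. Those called were Syn1, Syp, Sv2b, Snap25, Stx1a, Vamp1, Cplx2, Unc13a, Syt1, Syt7, Syt11, Rims1, Bsn, Pclo, Nlgn2, Nrxn3, Slc17a6, Slc32a1, Shank1, Shank2, Shank3 and Dlg4. Sv2c, which was lower in both genotypes against WT, was at -0.06 in DKO against Glb1KO. When 1 of the 10 libraries was left out, the call was lost in 8 cases for Syt11, 7 for Stx1a, 4 for Vamp1 and 3 for Nlgn2, with adjusted p up to 0.122, 0.141, 0.0656 and 0.0916. With the identifier letter as a term 14 of these 22 genes kept their call, and Sv2b, Snap25, Stx1a, Vamp1, Syt11, Nlgn2, Slc17a6 and Slc32a1 lost it, Snap25 at an adjusted p of 0.0502 and Slc17a6 at 0.80. Among the libraries with letter E, 2 of each genotype, 9 of the 22 kept their call, and Syp, Syt1, Pclo, Nrxn3 and Shank1 lost it beside the same 8. There Syt2, Dlgap1 and Homer1 were called lower as well, and none was called higher.

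Against Neu3KO, 24 of the 39 genes were called lower in DKO and none higher, against 25.1% of all genes called, 12.8% lower and 12.3% higher, but 5 lower and 10 higher with scaling to pan-neuronal genes. For 17 genes every DKO library was below every Neu3KO library, against 7.2% of all genes. Rims1 was at -0.75, Homer1 at -0.60 and Shank1 at -0.52. The call was lost in 5 of 10 cases of a library left out for Homer1, in 4 for Nlgn2 and in 1 for Nrxn2, with adjusted p up to 0.0998, 0.0662 and 0.0602. With the identifier letter as a term all 24 kept their call, whereas among the libraries with letter E, of which Neu3KO has 1, 6 of the 24 kept it and 18 lost it. These comparisons share the DKO libraries and those with WT share the WT libraries, so that their values are not independent of each other. The mean over the 39 genes of log2 CPM less the WT mean was -0.31 to -0.22 in DKO libraries, -0.08 to 0.03 in Glb1KO, -0.09 to 0.08 in Neu3KO and -0.04 to 0.05 in WT. Within DKO it was -0.22 in both libraries with letter E and -0.31 to -0.22 in the 3 with letter W. Within Glb1KO the letters did not overlap, with 0.0004 to 0.0288 in the 2 libraries with E and -0.0761 to -0.0428 in the 3 with L. Within Neu3KO the 1 library with E was at 0.0002, inside the range of -0.0925 to 0.08 of the 4 with W.

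The interaction, which takes the difference between Neu3KO and WT from that between DKO and Glb1KO, asks whether loss of Neu3 moved a gene differently in mice that lack Glb1. It was called in 12 of the 39 genes, all negative, against 6.84% of all genes called, 2.88% negative and 3.96% positive, but with scaling to pan-neuronal genes 1 was negative and 1 positive. The largest of these were Rims1 at -0.49 ± 0.087 (adjusted p = 0.000253), Shank2 at -0.42 ± 0.102 (adjusted p = 0.00836), Snap25 at -0.42 ± 0.075 (adjusted p = 0.000234), Shank1 at -0.40 ± 0.115 (adjusted p = 0.0369) and Cplx2 at -0.38 ± 0.074 (adjusted p = 0.000799). Snap25 and Cplx2 had positive values in both single knockouts against WT, 0.19 and 0.07 in Glb1KO and 0.14 and 0.15 in Neu3KO, and negative values in DKO. The call was lost in 15 of the 20 cases in which 1 library was left out for Shank1 and in 13 for Unc13a, which was at -0.36, with adjusted p up to 0.0804 and 0.0886. With the identifier letter as a term all 12 kept their call, and among the libraries with letter E Shank2 alone did.

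Of the other genes of the presynapse, from a list of 40, 17 were called lower in DKO than in WT and 3 higher, with a median log2 fold change of -0.14. Unc13c, a Munc13 of cerebellar granule cells, was at -1.01 ± 0.067, Rph3a, the Rab3 effector rabphilin, at -0.82 ± 0.061 and Rims3, a short RIM, at -0.35 ± 0.044. Dnm1, the dynamin of vesicle retrieval, was at -0.15 ± 0.046. Of 32 other postsynaptic genes, 21 were called lower and none higher, with a median of -0.23. Cacng2, the auxiliary AMPA receptor subunit stargazin, was at -0.38 ± 0.058, Dlg2, the PSD-93 scaffold, at -0.31 ± 0.049, Dlgap3, a SAPAP scaffold, at -0.38 ± 0.068 and Sorbs2 at -0.32 ± 0.057.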

How the data were processed

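Polyadenylated RNA of 1 brain hemisphere per library was sequenced in 4 genotypes with 5 libraries each, grouped by the labels' titles. The authors deposited raw read counts per gene, with the counted length of each gene, and a table of DKO against WT that holds log2 fold changes and adjusted p-values of their own per the file headers. The submitters' processing notes name the builds mm10 and GRCm38 and the tools DESeq2 1.20.0, featureCounts 1.5.0-p3, HISAT2 2.0.5 and fastp. Their roles, the strand setting and the filters are not given in the sources used here, so overlapping or antisense transcripts could share reads. The FPKM table was not used.

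The counts of all 20 libraries were fitted in edgeR 4.0.16 (R 4.3.3, limma 3.58.1) with a mean per genotype, TMM factors, the default filter for low counts, the robust quasi-likelihood F test, two-sided, and Benjamini-Hochberg adjustment over 18336 genes at 0.05, with no fold minimum. SE were derived from the F statistic, and 95% intervals from these SE with the residual degrees of freedom alone. The F test adds degrees of freedom shared between genes, so an interval can reach past 0 where the unadjusted p is under 0.05. Levels are TMM-scaled CPM, divided by counted length where genes are compared. The mean over the 39 genes used log2 CPM with a prior count of 2. The method was tested on simulated counts. Alternatives were other scaling factors, other filters, DESeq2 1.42.0, fits of 2 groups at a time, a term for replicate number or identifier letter, libraries with letter E, scaling to pan-neuronal genes and each library left out. No 2 libraries of a genotype agreed within counting noise. All sample columns were matched to the labels, and 0 rows lacked a gene name. All 39 genes were found in GENCODE M21, 37 at the same start and end.

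The 39 genes and the lists of other genes were chosen with earlier results of these data known. Values in every library are given for up to 3 genes per role with the smallest adjusted p in DKO against WT, for the vesicular transporters, for genes called higher in a comparison and for genes called in the interaction. From each list of other genes, those named are among the 4 with the smallest adjusted p or the 2 most abundant; some of these are not reported here. Promoter windows are from RefSeq (GRCm38.p6).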

Additional observations from a re-analysis of the deposited data

Results flagged for a closer look

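Of 156 sets of 5 libraries, 1 per gene and genotype, 8 had a library that stood far from the other 4, where chance gives about 1 in 20. In DKO these were Vamp2 at 848 CPM and Syt7 at 344 CPM, both in replicate 5. In Glb1KO they were Rims1 at 212 CPM in replicate 1 and Nlgn2 at 332 CPM in replicate 4. In Neu3KO they were Syn3 at 21.8 CPM in replicate 4 and Nsf at 851 CPM in replicate 3. In WT they were Rab3a at 444 CPM and Pclo at 502 CPM, both in replicate 1, the WT library with the highest mean over the 39 genes.

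For 12 genes the effect of Neu3 loss differed between mice with and without Glb1, by the test of the interaction (edgeR, adjusted p under 0.05). The log2 values were -0.33 for Syn1, -0.26 for Syp, -0.30 for Sv2b, -0.42 for Snap25, -0.38 for Cplx2, -0.36 for Unc13a, -0.27 for Syt1, -0.49 for Rims1, -0.40 for Shank1, -0.42 for Shank2, -0.37 for Shank3 and -0.25 for Dlg4. Unc13a lost its call in 13 and Shank1 in 15 of the 20 cases in which 1 library was left out (adjusted p up to 0.0886 and 0.0804), and the other 10 genes lost none. All 12 lost their negative call with scaling to the summed pan-neuronal counts, as did all but Rims1 with the median-ratio scaling and all but Shank2 among libraries with letter E.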

How the results depend on the processing

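The counts of called genes stayed within 1.5 times those reported under size factors by relative log expression, upper-quartile factors, a stricter filter, no filter and DESeq2, the widest moves being those of the interaction, to 16 genes with DESeq2 and 15 with no filter, and of Glb1KO against WT, to 4 with no filter. With the compared groups alone they did so too except for Glb1KO against WT, where 5 genes were called. Left-out libraries gave 22 to 25 called genes for DKO against WT, 1 to 3 for Glb1KO against WT (the 1 being Rims1, without Glb1KO replicate 1 or 2 or WT replicate 3 or 5), 0 to 0 for Neu3KO against WT, 19 to 22 for DKO against Glb1KO, 22 to 26 for DKO against Neu3KO and 10 to 16 for the interaction. Identifier letters are tied to genotype, and the part of letter and genotype can be told apart only where a letter is shared. With the letter as a term, 22 genes were called in DKO against WT (21 of the 24 and Dlgap1), 0 in Glb1KO against WT and 17 in DKO against Glb1KO (14 of the 22 with Nrxn2, Dlgap1 and Camk2b). Among libraries with letter E, 20, 1, 12, 7 and 1 genes were called in DKO against WT, Glb1KO against WT, DKO against Glb1KO, DKO against Neu3KO and the interaction, with 2 DKO, 2 Glb1KO and 1 Neu3KO libraries left, and the lone library is assumed to vary like the others. Fewer libraries enter these fits, and the part of the letter in the losses was not tested. The shares of all genes called in the letter fits are not given here, nor those with the replicate number as a block. The counts alone thus cannot show whether losses or gains of calls were particular to the synaptic genes.

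Replicate numbers did not pair the libraries: same-numbered libraries of different genotypes had a mean correlation of deviations of -0.002, and 0 of 30 pairs were above 0.1. With the replicate number as a block, 24, 3, 0, 21, 25 and 11 genes were called in DKO against WT, Glb1KO against WT, Neu3KO against WT, DKO against Glb1KO, DKO against Neu3KO and the interaction, and 2 of 20 libraries correlated best with their own number.

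Scaling to the summed pan-neuronal counts gave 6 called genes in Glb1KO against WT, 8 in DKO against Glb1KO (4 lower, 4 higher), 24 in DKO against Neu3KO (1 lower, 23 higher) and 4 in the interaction, all positive. The median-ratio scaling, chosen after the data were seen, gave 8 (5 lower, 3 higher), 15 (5 lower, 10 higher) and 2 (1 negative, 1 positive) in DKO against Glb1KO, DKO against Neu3KO and the interaction. Under these scalings 58 log2 fold changes of called genes changed sign, as the shift of all genes by construction brings about. With the summed counts these were, in DKO against WT, Syn3 0.063, Syp 0.17, Stx1a 0.0669, Cplx2 0.19, Syt7 0.14, Syt11 0.12, Nlgn2 0.0977, Nrxn2 0.13, Nrxn3 0.0733, Slc32a1 0.10 and Dlg4 0.11. In DKO against Glb1KO they were Syp 0.0244, Sv2b 0.0516, Cplx2 0.0084, Syt1 0.0553, Syt7 0.0191, Syt11 0.11, Nlgn2 0.0754, Nrxn3 0.0167, Slc32a1 0.0473 and Dlg4 0.0111, in DKO against Neu3KO Syp 0.16, Sv2b 0.17, Snap25 0.17, Stx1a 0.0518, Cplx2 0.0884, Syt1 0.20, Syt7 0.19, Syt11 0.15, Bsn 0.11, Pclo 0.0768, Nlgn2 0.24, Nrxn2 0.22, Nrxn3 0.12 and Dlg4 0.13, and in the interaction Syp 0.0175, Syt1 0.0086 and Dlg4 0.0342. With the median ratio they were, in DKO against WT, Syp 0.0506, Cplx2 0.0706, Syt7 0.0148 and Nrxn2 0.0055, in DKO against Glb1KO Syp 0.0084, Sv2b 0.0361, Syt1 0.0392, Syt7 0.0022, Syt11 0.0889, Nlgn2 0.0589, Nrxn3 0.0003 and Slc32a1 0.0302, and in DKO against Neu3KO Syp 0.0189, Sv2b 0.0203, Snap25 0.0239, Syt1 0.059, Syt7 0.0498, Syt11 0.0039, Nlgn2 0.0914 and Nrxn2 0.0749. Over the single genes and comparisons, 783 values under alternatives kept direction and call and 167 kept the direction and lost the call.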

Other observations

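The other markers of glia and vessels moved as follows in DKO against WT. All 12 myelinating oligodendrocyte genes were called lower, Mag at -0.94 and Fa2h at -1.34 among them, with summed levels of 3715 to 4906 CPM in DKO, 3671 to 4177 in Glb1KO, 5957 to 6695 in Neu3KO and 5861 to 6663 in WT. Of 8 homeostatic microglia genes 4 were called higher and none lower. Of 8 endothelial genes 1 was called higher, Slco1a4 at 0.60, and 2 lower, Kdr at -0.53 and Cdh5 at -0.33. The summed level of the 39 synaptic genes was 18058 to 19430 CPM in DKO, 20991 to 22396 in Glb1KO, 20517 to 23449 in Neu3KO and 20600 to 21809 in WT.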
